A study of Mus musculus with 2 samples.

Results

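Long intronic contigs are unbroken stretches of sequenced RNA that lie on the coding strand of a gene and touch none of its annotated exons. They were taken from the deposited contig table of the mouse cortex, in which a contig is a run of overlapping aligned reads on 1 strand. A nuclear contig counted when it was at least 5000 nt long, had an irreproducibility of at most 0.1, overlapped a gene span of the Ensembl 65 table on its own strand and overlapped no exon of the Ensembl 65 exon table on that strand. The contigs were thus selected on their measured length and irreproducibility as well as on position. The rule kept 10139 of 862041 contigs. Of the 31425 nuclear contigs that passed the limits on length and irreproducibility, these were 32.3%, while 18920 touched an exon of the strand and 2366 lay outside every gene of the strand.

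The tissue was cortex, labelled cortical plate, of adult C57BL/6J mice aged 8 weeks, with littermates of both sexes pooled. There was 1 group without treatment or genetic change, and 2 libraries of it, numbered as biological replicates 1 and 2. Each library held stranded paired-end reads from polyadenylated RNA longer than 200 nt, depleted of ribosomal RNA, with external control RNAs added. The contig table pools both libraries, so the contigs have no level per replicate. The gene tables on the mm10 assembly held 91875460 expected counts in replicate 1 and 92939474 in replicate 2. Markers of neurons lay between 64.0 and 1594 TPM (transcript abundance corrected for length and library size) in replicate 1 and between 57.9 and 1465 TPM in replicate 2. All positions of contigs are on the mm9 assembly.

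A gene is first copied from end to end, introns included, into a precursor RNA. The spliceosome then cuts out the introns and joins the exons, and an intron is normally degraded soon after it is removed. RNA that is selected for its poly(A) tail is mostly finished messenger RNA, but it can also hold unspliced precursors, introns that are kept, exons that an annotation lacks, separate transcripts made inside an intron, and fragments caught through internal runs of A. Genes for synaptic adhesion molecules and ion channels are among the longest genes of mammals, and most of that length is intron.

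The contigs had a median length of 7559 nt, with the middle of the distribution between 5960 and 11112 nt. There were 3079 of at least 10000 nt and 37 of at least 50000 nt. By its values, the authors' level is the number of aligned bases per nucleotide of contig on a fixed scale, on which a level of 1 stands for 53.6 aligned bases per nucleotide over both libraries. The median level was 0.251, with quartiles of 0.185 and 0.362, a lowest value of 0.076 and a highest of 57.4. A level of 1 was reached by 217 contigs and a level of 5 by 4. Expressed as full-length reads, the median contig held 1050 reads and the smallest 205.

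Length, level and irreproducibility come from the same reads that made the contigs, so these values describe the selection and carry no test. The irreproducibility was listed as 0 for every contig of this length, so that limit removed none. The length limit fell within a dense range. Just inside it lay contigs of 5000 nt in Macrod2 at a level of 0.1 and in Cntn4 at 0.245, and 1 of 5001 nt in Hs6st1 at 0.165. Just outside it lay contigs of 4998 nt in Daam2 at 0.175 and in Slit1 at 0.126, and 1 of 4997 nt in Fhod3 at 0.129.

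Level and length went together. The 7060 contigs of 5 to 10 kb had a median level of 0.219, the 2362 of 10 to 20 kb 0.312, the 680 of 20 to 50 kb 0.472 and the 37 of 50 kb or more 0.733. By construction a contig ends where its reads run out, so length and level are not separate measurements. Among the 365402 contigs of any length that met the 2 conditions on annotation, the long ones were 2.77% by number, 27.4% by length and 49.3% by aligned bases. They held 4.17% of all aligned bases in nuclear contigs.

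**Figure D1:**
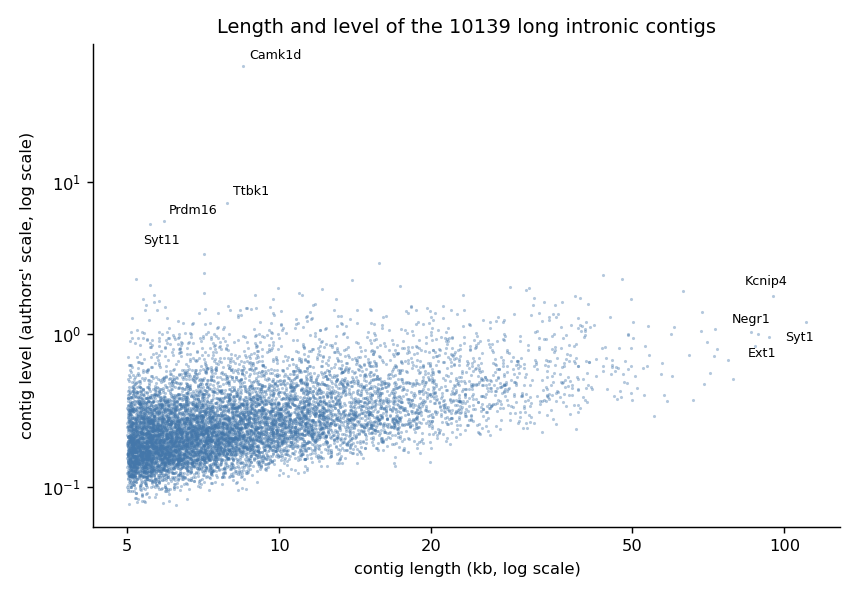
Each point is 1 of the 10139 long intronic contigs, with its length in kb on the horizontal axis and the authors' level on the vertical axis, both on log scales. Levels cluster near the median of 0.251, longer contigs sit higher, and the contig in Camk1d stands alone at 57.4.

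The longest contig lay in Syt1, which encodes the calcium sensor of synaptic vesicle release. It was 110549 nt long (chr10:108155111-108265659, minus strand), lay in intron 5, of 140042 nt, and had a level of 1.21. The next was a contig of 94932 nt at a level of 1.79 in the first intron of Kcnip4, a gene for an auxiliary protein of A-type potassium channels (chr5:49691833-49786764, minus strand). Contigs of 93125 nt in Ext1, which encodes an enzyme of heparan sulfate synthesis, and of 88697 nt in Negr1, a cell adhesion gene, followed at levels of 0.952 and 1.0. The other 6 of the 10 longest were in Grin2a, an NMDA receptor subunit gene, Opcml, Kcnma1, Sgcz, Asic2 and Nlgn1, from 87387 down to 72782 nt and at levels from 0.512 to 1.08. All 10 lay in introns of at least 140042 nt. In none of the 10 did a single junction of 10 or more reads connect the contig with an annotated exon.

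The strongest contig was of another kind. It was 8489 nt long, lay in intron 5 of Camk1d, a calcium/calmodulin-dependent protein kinase gene (chr2:5293019-5301507, minus strand), and had a level of 57.4, or 258342 reads. The contigs of Camk1d that touch exons had a mean level of 0.982, so this contig stood 58.5-fold above them. The other 19 long intronic contigs of the gene lay between 0.136 and 0.535. The gene itself was at 3.46 and 3.26 RPKM (reads scaled by gene length and library size) in the 2 columns of the mm9 gene table. A junction with 77 and 115 reads led into the contig from another long intronic contig of the same gene, across 197241 nt, and no junction of 10 reads joined it to an annotated exon.

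Ttbk1, a tau tubulin kinase gene, held the second at a level of 7.3 in 7884 nt (chr17:46591025-46598908, minus strand). That contig was reached by a junction from an annotated exon with 128 and 148 reads. A contig of 5898 nt at 5.53 began 351 nt after the first exon of Prdm16, a transcription regulator gene, whose exon contigs averaged 0.618. Syt11, another synaptotagmin gene, held 1 of 5544 nt at 5.3, which is 0.251 of the level of its exon contigs. The other 6 of the 10 strongest lay between 3.37 and 2.31, in Cux1, Kcnip4, Scg5, Phactr1 with 2 contigs, and Dram1. In Dram1, a gene linked to autophagy, the contig stood at 2.31 while the exon contigs averaged 0.246.

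These cases were exceptions. Every contig had a host gene with exon contigs to compare with, and the median ratio of contig level to the mean level of the host's exon contigs was 0.252, with quartiles of 0.148 and 0.419. Only 328 contigs, or 3.24%, exceeded it, and 1, that of Camk1d, exceeded it 10-fold. The ratio was 0.226 for contigs of 5 to 10 kb and 0.687 for those of 50 kb or more. Exon contigs include intron sequence beside the exons, which lowers their mean level. RPKM values of genes were not used for this ratio, because they are on another scale. Over the same single assembled exons, the median contig level was 3.45 times the mean RPKM.

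The contigs fell in 2281 host genes, of which 2181, or 95.6%, are protein-coding. A few genes held most of them. One contig was the only one in 950 genes, while 270 genes held 10 or more and 11 genes 50 or more, and 247 genes accounted for 50% of all pairs of a contig and a gene. Ptprd, a receptor tyrosine phosphatase gene of synapse formation, held 109 contigs with 1374726 nt in all, which covered 61.2% of the exon-free length of its 2270724 nt span. Dlg2, which encodes the postsynaptic scaffold PSD-93, held 76, and Nrxn3, a presynaptic neurexin gene, held 75. Magi2, Lingo2, Csmd1, Asic2, Il1rapl1, Macrod2 and Dab1 held 50 to 59 each. The cover of exon-free length among these 10 ran from 21.0% in Macrod2, an ADP-ribose hydrolase gene, to 78.9% in Asic2, an acid-sensing ion channel gene. Over all hosts the median cover was 18.7%, and 147 hosts were covered over 50%.

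A gene could hold such a contig only if it had an exon-free stretch of at least 5000 nt on its strand. The contig table also lists nothing near the ends of 8 chromosomes. On chromosomes 13 to 19 and X the last contig ended between 0.867 and 17.7 Mb before the last gene, and 625 genes, 168 of them at 1 RPKM or more, ended past that point. Leaving those out, 12567 genes could have held a long intronic contig and 2280 did, which is 18.1%. Over all 37310 genes the share was 6.11%. Hosts had a median span of 111 kb and a median level of 2.43 RPKM, against 31.5 kb and 0.264 RPKM for the 10287 other genes that qualified.

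Both the exon-free stretch and the level of the gene went with the presence of a contig. Part of this follows from the rule, since a contig needs exon-free room for its minimum length and enough reads to run unbroken. Intron reads that merge into a contig over an exon are not counted either, which is more likely in short stretches. How much of the pattern the rule accounts for was not tested. Among genes whose longest stretch was 5 to 10 kb, 0.167% held a contig when the gene was under 0.1 RPKM and 2.46% at 5 RPKM or more. Among genes with a stretch of 100 kb or more, the shares were 3.6% under 0.1 RPKM (4 of 111, 95% Wilson interval 1.41 to 8.9), 54.2% from 0.1 to 1 RPKM, 96.5% from 1 to 5 RPKM and 97.2% above that (69 of 71, interval 90.3 to 99.2). The intervals cover counting error only.

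**Figure D2:**
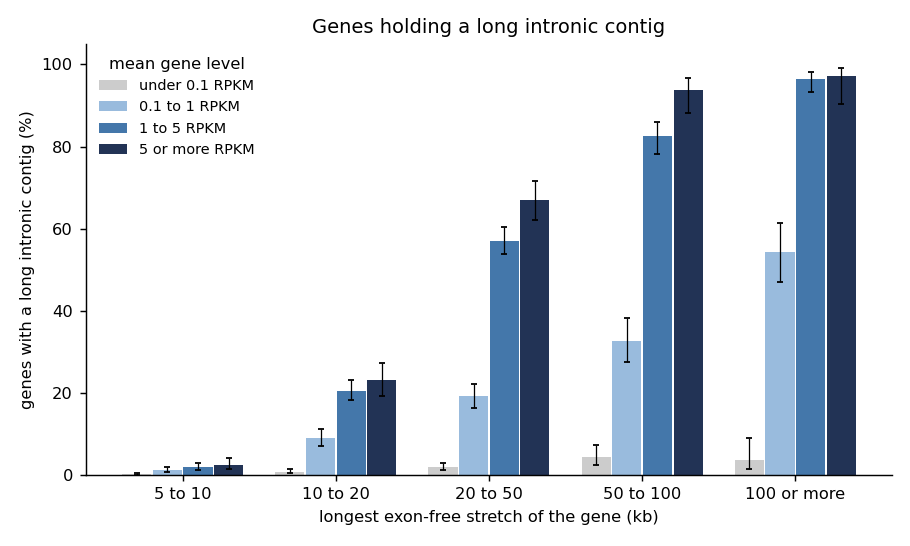
Bars give the percent of genes that held at least 1 long intronic contig, by the longest exon-free stretch of the gene in kb and by its mean RPKM, and error bars are 95% Wilson intervals. The share was 2.46% or less in every class of the shortest stretches and reached 97.2% in expressed genes with the longest. The rule that defines the contigs itself favours long stretches and expressed genes.

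The shares within gene groups are read against that pattern. Of genes for cell adhesion and synapse organisation, 39 of 44 that could hold a contig did, with 1350 contigs between them, and examples were Lrrtm4 with 40, Cntnap2 with 41, Opcml with 45 and Nrg3 with 45. Of genes for ion channels and receptors, 42 of 45 did, with 569 contigs, among them Kcnip4 with 45, Grm7 with 40 and Cacna2d3 with 34. A mixed list of kinases, phosphodiesterases, cytoskeletal proteins and transcription factors gave 36 of 39 and 360 contigs, led by Pde4d with 50 and Auts2 with 42. Genes of RNA-binding and splicing proteins gave 19 of 31 and 114 contigs, led by Rbfox1 with 16, Msi2 with 14 and Rbfox3 with 13. Of all genes at 1 RPKM or more with a stretch of 50 kb or more, 89.6% were hosts (722 of 806). Within the same limits 33 of 34 adhesion genes, 34 of 34 channel genes, 29 of 29 genes of the mixed list and 12 of 13 RNA-binding genes were hosts. These shares lie near or a little above that background, and no difference was tested.

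Some genes of very high level held none. Snap25 of the vesicle fusion machinery, at 212 and 198 RPKM, and Camk2a, the alpha subunit of CaM kinase II, at 152 and 134 RPKM, had no long intronic contig. Every contig on the strand of these genes touched an exon. Intron reads that merge into such contigs are not counted apart, so the introns may still have given RNA. Of the other neuron markers, Syt1 held 15 and Rbfox3 13. Markers of glia and endothelium gave few, but none that could hold a contig was at 1 RPKM or more with a stretch of at least 50 kb. Syt1 and Rbfox3 both were, so these counts do not compare cell types. Slc1a3, an astrocyte glutamate transporter gene, held 2, while no marker gene of oligodendrocytes, microglia or endothelium held any, from 2 genes that could in each list. Of 21 imprinted genes that could hold a contig 6 were hosts, or 28.6%, against 18.1% of all genes that could. They held 16 contigs in all, 6 each in Ppp1r9a and Trappc9 and 1 each in Copg2, Ube3a, Grb10 and Kcnk9. Of the 4 imprinted genes at 1 RPKM or more with a stretch of at least 50 kb, 3 were hosts, against 89.6% of all such genes. The long non-coding RNA genes Meg3 and Ftx had a stretch of the needed length but no contig. Of the markers that could hold a contig, 3 of striatum, 3 of hippocampus and 1 of choroid plexus, none was a host, and no skeletal muscle marker could hold one. None of these markers was at 1 RPKM or more with a stretch of at least 50 kb either. On the X chromosome 50 of 540 genes that could hold a contig did, or 9.26%, against 18.5% on the autosomes, and the median levels of those genes were 0.0676 and 0.626 RPKM. Among genes at 1 RPKM or more with a stretch of at least 50 kb, 14 of 19 on the X and 708 of 787 on the autosomes were hosts.

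Some long expressed genes had none. Apart from a predicted gene, the longest stretches without a contig in genes at 1 RPKM or more were 200.0 kb in Ntng1, 169 kb in Synpr, 146 kb in Spock3 and 135 kb in Tenm1. Exon-free contigs still held 31.1% of the aligned bases in Synpr, which encodes a synaptic vesicle protein, and 50.9% in Tenm1, a teneurin adhesion gene.

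Within their genes the contigs lay deep in long introns. The 10139 contigs occupied 4160 introns. Each contig lay wholly inside 1 intron, which follows from the rule, since a gene span begins and ends with its own exons. Taken over contigs, so that an intron with many contigs counts many times, the median length of the surrounding intron was 78.9 kb. Of the contigs, 41.7% lay in introns of 100 kb or more, 56.4% in the longest intron of the host and 29.3% in the first. The median distance was 24.3 kb to the next exon upstream and 32.1 kb to the next exon downstream. Only 495 contigs began within 1000 nt of the upstream exon and 327 ended within 1000 nt of the downstream exon. Contigs in 1 intron often lay close together. Among 5979 pairs of neighbours in the same intron the median gap was 1800 nt, and 31.3% of gaps were under 100 nt. Asic2 had 41 contigs in a single intron.

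By midpoint, 15.8%, 26.1%, 26.9%, 21.4% and 9.87% of contigs fell in 5 successive equal bins of their intron, counted in the direction of transcription. The last part of the intron held the fewest. The midpoint of a long contig cannot lie at an intron's edge, and a contig that reaches the exon is not counted, so the outer bins are counted low. Coverage was therefore measured over all contigs of the strand, of any length, exon contigs included, in introns of at least 50 kb of the host genes. Not every such intron was profiled: of 132 introns with 10 or more long contigs, 100 were. The values below hold for the profiled introns only. Bases outside contigs are not listed and counted as 0. The bases of each contig were spread evenly over its length. Exon reads of a contig that reaches into an intron therefore count in that intron too.

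Coverage fell along the intron. In the 1332 profiled introns that held a long contig, the median coverage relative to the intron's own mean was 1.47 in the first bin. It was then 1.14, 0.945, 0.727 and 0.626. The first bin exceeded the last in 1216 introns, or 91.3%, with a median ratio of 2.33. The ratio was 2.05 in 838 introns of 50 to 100 kb, 2.9 in 386 introns of 100 to 200 kb and 4.14 in 108 introns of 200 kb or more. It was 2.61 in first introns and 2.26 in later ones. The 319 profiled introns of the same genes with no long contig showed a like decline, from 1.5 to 0.644, with a ratio of 2.39. Their coverage was lower, with a median of 4.76 aligned bases per nucleotide in the first bin against 17.8. These are descriptions of pooled reads, and introns of 1 gene are not independent.

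**Figure D3:**
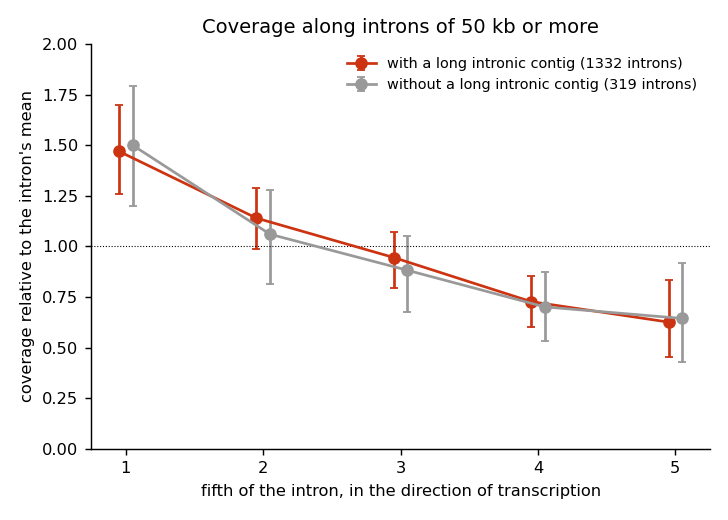
Points are the median coverage in each of 5 equal bins of an intron, in the direction of transcription, divided by the intron's own mean, and error bars span the quartiles over introns. Introns with a long contig fall from 1.47 to 0.626 and those without from 1.5 to 0.644.

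Many single introns showed this course. In the third intron of Lrrtm4, a gene for a postsynaptic adhesion protein, 783 kb long with 40 long contigs, coverage was 57.6, 57.9, 40.4, 30.7 and 11.7 aligned bases per nucleotide in the 5 successive bins. In the first intron of Kcnd2, an A-type potassium channel gene, it was 47.3, 32.3, 26.1, 18.4 and 8.98. In the third intron of Nlgn1, which encodes the postsynaptic adhesion protein neuroligin 1, it was 76.8, 60.3, 56.9, 34.6 and 12.3. Of the 100 profiled introns with 10 or more long contigs, 97 were higher in the first bin than in the last. The 3 exceptions were the first intron of Ank3, from 25.2 up to 40.7, and introns of Dlg2 and Tenm2. Among the 108 profiled introns of 200 kb or more with a long contig, coverage fell at each of the 4 steps in 54.6%. Among all 1332 it did so in 29.0%.

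Where 2 profiled introns with long contigs followed each other, coverage mostly rose again after the exon between them. In 204 of 247 such pairs, or 82.6%, the first bin of the second intron was above the last bin of the first, with a median ratio of 2.04. Reads of the exon between them can add to both bins. With 5000 nt trimmed from each end of the introns the share was 78.5%. In Nrg3, a neuregulin gene whose product binds the ErbB4 receptor, the first intron of 460.0 kb ran from 81.2 to 14.6 aligned bases per nucleotide, and the second, of 344 kb, started at 47.1 and ran to 13.2. In Il1rapl1, an X-linked synaptic adhesion gene, intron 5 ended at 3.11 and intron 6 started at 17.4. In Syt1, intron 3 ran through 70.4, 60.3, 45.7, 35.4 and 61.9, and in Ptprd intron 4 ran from 17.4 up to 21.6, so both rose in the last bin. Pcdh9, a protocadherin gene, did otherwise: its first intron ended at 50.3 and its second started at 42.0.

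**Figure D4:**
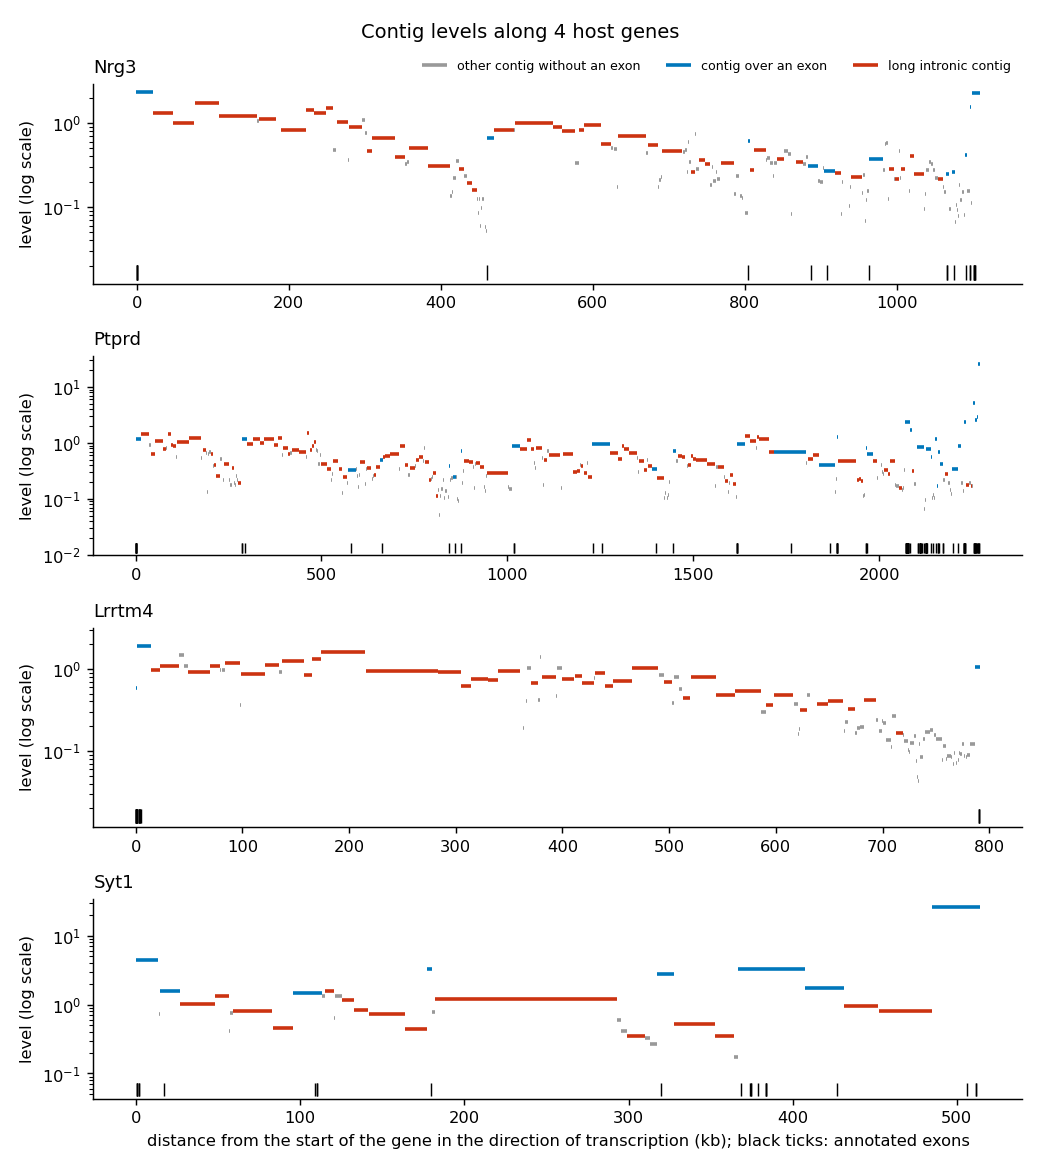
Horizontal bars are contigs of Nrg3, Ptprd, Lrrtm4 and Syt1, placed by distance in kb from the start of the gene in the direction of transcription and at their level on a log scale, with annotated exons as black ticks. Levels decline along the long intron of Lrrtm4 and step up after the second exon of Nrg3, while introns 3 and 4 of Syt1 and intron 4 of Ptprd end higher than their middle.

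At a limit of 10 reads, splicing marked few of the contigs. Junctions with at least 10 reads connected 314 contigs, or 3.1% (95% Wilson interval 2.78 to 3.45), with a place outside them on the same strand: 165 were spliced into and 247 spliced out of. The share depends on the limit, with 69.8% at 1 junction read and 0.671% at 50 reads, and 1.74% and 1.75% with 10 reads in a single column. By comparison 9741, or 96.1%, were spanned whole by a junction of at least 10 reads. Of the long contigs over exons, 88.5% had a spliced end. Shorter intronic contigs, from 1000 nt up to the length limit, had one in 0.587% of cases, but per length the numbers were close, with 3.11 such contigs per Mb among the long ones and 2.99 per Mb among the shorter.

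A small group carried complete spliced pieces. In 88 contigs junctions led both in from and out to annotated exon edges, and in 86 of them the acceptor and the donor enclosed a piece of at most 500 nt. The pieces had a median size of 90.5 nt, from 18 to 333 nt, and 45 of 86 were a multiple of 3 nt long. Annotated exons were excluded by the rule, so none of these pieces is an exon of Ensembl 65 on that strand. Inclusion, the mean of the entering and leaving reads set against that mean and the reads that skip the piece together, had a median of 10.1% with quartiles of 3.48% and 24.7%. With 20 reads required for each junction, 44 contigs held a piece and the median inclusion was 21.0%. It exceeded 50% in both columns of the junction table in 12 pieces and was under 10% in both in 38. The median difference between the columns was 1.69 percentage points. The sources used here do not assign the columns to replicates.

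The piece with most reads lay in the first intron of Ctbp1, a transcriptional corepressor gene. It was 193 nt long (chr5:33612091-33612283, minus strand), with 500 and 467 entering reads, 566 and 580 leaving reads and 112 and 94 skipping reads, which gave inclusion of 82.6% and 84.8%. A piece of 51 nt in Fam49b, whose product binds the small GTPase Rac1, was included at 97.3% and 91.7%. Sarnp, an RNA export gene, held 1 of 53 nt at 97.3% and 97.4%. Agap1 held 1 of 78 nt at 43.3% and 41.7%, and Btrc, a ubiquitin ligase gene, 1 of 42 nt at 48.9% and 50.2%. In Iqsec1, an Arf activator gene, a piece of 45 nt was at 30.2% and 27.8%, with 15 and 11 entering reads counted. A junction into the same acceptor from a place that is no annotated exon edge had 173 and 177 reads and was left out. The Iqsec1 values are therefore too low as a measure of how often the piece is used. By the counted junctions, inclusion was thus over 50% in both columns for Ctbp1, Fam49b and Sarnp, and under 50% in both for Agap1.

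Other contigs were joined on 1 side only. Junctions led out to annotated exons but not in for 126 contigs, and in but not out for 51. In Anks1b, a postsynaptic scaffold gene, a contig of 40197 nt at a level of 1.05 sent 201 and 202 reads from 1 donor to an annotated exon, and no junction of 10 reads entered it. Olfm2, which encodes a secreted olfactomedin, sent out 248 and 236 reads from a contig of 13580 nt, and Cyth1, an Arf exchange factor gene, 238 and 218 from 1 of 9233 nt.

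The second exon table of the study, built from transcripts assembled by Cufflinks, covered at least 50% of 1860 contigs, or 18.3% (interval 17.6 to 19.1), and some part of 49.5%. The share was 12.5% for shorter intronic contigs, 22.7% for long contigs over exons and 51.9% for long contigs outside genes. The assembled exons carry an RPKM in each of 2 columns, which is not always their own: in 62.1% of assembled models with 2 or more exons, all exons share 1 pair of values. Values by column are therefore given only for contigs matched to a model of a single exon. In 169 contigs, in 104 genes, such an exon covered at least 50% of the contig and had at least 90% of its own length inside it.

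These single-exon models differed little between the columns. Their medians were 0.0885 and 0.0931 RPKM, and 156 of 169, or 92.3%, lay within 1.5-fold of the median ratio of the columns. None of the 169 lay beyond 2-fold of it. Across them the log2 values of the columns had a Pearson r of 0.951, given as a description, since contigs share genes. The widest gap with column 1 higher was in Fam135b, at 0.0665 and 0.034 RPKM for a contig of 7548 nt. With column 2 higher it was in Trhde, a peptidase gene for thyrotropin-releasing hormone, at 0.0716 and 0.128 RPKM for 1 of 5958 nt. Of the contigs at a level of 1 or more, 3 had such a model, and their columns lay within 1.27-fold of each other: Syt11 at 2.52 and 2.25 RPKM, Pde10a at 0.471 and 0.369, and Ank2, an ankyrin gene, at 0.403 and 0.326.

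On the opposite strand a contig of any size was present at 4198 of the places, or 41.4%. It was weak at most of these places: opposite aligned bases were over 10% of the contig's own at 175. Over all contigs, those without an opposite contig included, 90% had at most 1.14%. The median over all contigs was 0%, which follows from most of them having no opposite contig. Annotated exons of the opposite strand lay at 355 places. The share with an opposite contig was 13.8% for shorter intronic contigs, which offer less length, and 53.5% for long contigs over exons.

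The host genes were well expressed in both libraries. Their median level on mm10 was 18.7 TPM in replicate 1 and 16.7 TPM in replicate 2, against 2.96 TPM over the 24055 genes with a count. For each gene the expected counts of the libraries, rounded, entered a two-sided exact binomial test, which compares these 2 libraries and no conditions. Of 2232 hosts tested, 931, or 41.7%, passed an adjusted p of 0.05, 444 higher and 487 lower in replicate 2. Over all 19819 genes tested the share was 28.7%. Hosts had a median of 9612 counts over both libraries and all genes tested 1911, so smaller differences pass among hosts. With a further limit of 1.5-fold, 12 hosts remained, or 0.538%, against 4.36% of all genes tested. Scaling by plain totals in place of trimmed means turned the split to 263 higher among 1039 hosts past the threshold.

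The host with the largest drop was Csnk1g3, a casein kinase gene with 1 contig, at 4870 and 1266 counts in replicates 1 and 2, which is 3.77-fold lower in replicate 2. Shisa6, an AMPA receptor auxiliary gene, was at 2411 and 1164 counts (adjusted p = 6.4e-91, exact binomial test), and Wipf3, Zbtb16 and Slit1 were 1.51-fold to 1.54-fold lower. The largest rise was in Pde10a, the phosphodiesterase of striatal neurons, a host of 16 contigs, at 5384 and 17612 counts, or 3.34-fold higher. Scn4b, a sodium channel subunit gene, was 2.77-fold higher, Gng7 1.86-fold, Adcy5, a striatal adenylyl cyclase gene, 1.79-fold, and Pbx3 1.71-fold. Beside these, 7 of 7 striatal markers were higher in replicate 2, with a median log2 ratio of 2.13 and summed levels of 126 and 377 TPM, 5 of 5 hippocampal markers were lower, with a median of -1.19, and 5 of 5 oligodendrocyte markers were higher, with a median of 0.43. The part of these in the host differences was not tested. In bulk tissue a change in the number of cells of a type and a change in RNA per cell cannot be told apart.

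**Figure D5:**
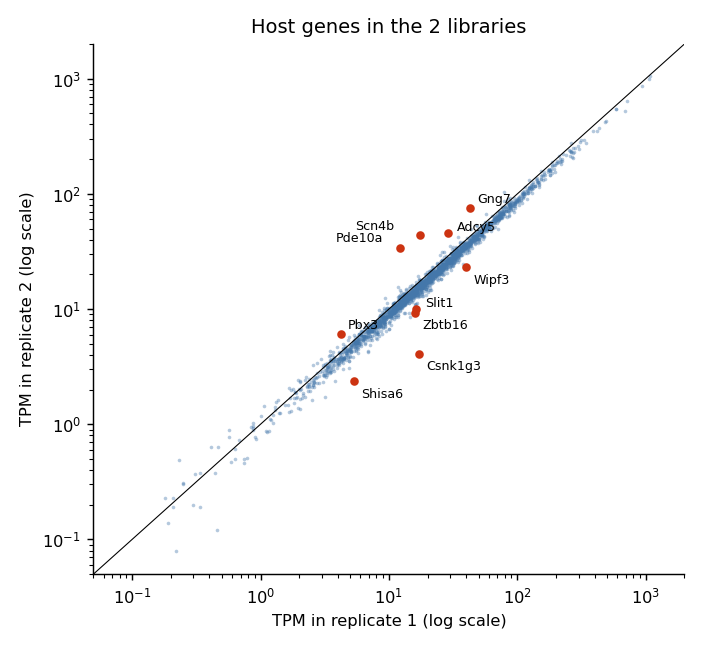
Each point is a host gene at its TPM in replicate 1 and replicate 2, on log scales, with the line of equal values and the 5 hosts of largest ratio in each direction in red. Hosts lie close to the line and mostly just below it, with medians of 18.7 and 16.7 TPM, and Pde10a and Csnk1g3 stand farthest apart. TPM is not scaled by trimmed means between the libraries. With that scaling, 444 of the hosts past the threshold were higher and 487 lower in replicate 2.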

How the data were processed

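The deposited contig table, on mm9 and with both libraries pooled, has no header. By its values, the deposited signal is the number of aligned bases per contig nucleotide on a fixed scale, beside the summed aligned bases. The deposited irreproducibility score runs from 0 upward, and how it was made is not given in the sources used here. The deposited junction table gives read counts per junction in a pair of columns. The deposited mm9 gene and exon tables give RPKM in a pair of columns, for Ensembl 65 and for Cufflinks models. Which column is which replicate is not stated, and the programs are not given in the sources used here. The authors' mm10 gene tables (GENCODE M4, per the notes deposited with each library) give expected counts and TPM for each library.

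The gene table lists each gene in 2 rows with the same RPKM, so 74620 rows became 37310 genes. Overlap with a gene or exon meant at least 1 shared base on the same strand. Introns are stretches of a gene span free of its own exons. Symbols came from a reference table by Ensembl identifier and gene types from GENCODE M21. The table named 2234 of 2281 host genes. Junctions needed 10 reads. Expected counts were rounded and genes with 10 counts over both libraries were tested with an exact binomial test scaled by TMM (edgeR 4.0.16, R 4.3.3), with Benjamini-Hochberg adjustment and 0.5 added for log2 ratios. DESeq2 1.42.0 gave an alternative scaling. The binomial test was first tried on simulated counts with known changes. Those counts varied by counting error only, so the trial does not cover variation between animals. Tables, intervals and figures were made in Python 3.11.15 with pandas 2.3.3, numpy 2.4.6, matplotlib 3.10.9 and scipy 1.17.1.

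The contigs and gene lists were chosen with earlier results of these data known. Genes were named by rule: the 10 longest and 10 strongest contigs, the 10 hosts with most contigs or contig length, the 10 contigs with most spliced reads, the contigs nearest the length limit, listed hosts, and the 5 hosts with the largest library ratio each way. Other names were chosen after their values were seen: the leading spliced pieces, single introns and intron pairs, long genes without a contig, and contigs that differ between RPKM columns. The limit to single-exon models for those columns was also set after the values were seen. Without molecular identifiers reads are not independent molecules, so intervals hold for counting error alone. No genome sequence of the mm9 build was used here, so no sequence is shown.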

Additional observations from a re-analysis of the deposited data

How the results depend on the processing

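Of 80 values recomputed under alternatives, 30 belong to 3 settings that keep the same 10139 contigs by construction, a stricter or absent limit on irreproducibility and containment in the gene span, and show nothing about stability. Of the others, 15 stayed within the limits and 35 did not. The limit was the counting interval of the main value, 1.5-fold for counts, and for the median host TPM the SD of the 2 library medians. That SD comes from the same 2 medians, so leaving out a replicate could hardly exceed it and shows nothing about stability. The count filter and the scaling kept the number of hosts that differ between the libraries within 1.5-fold, but with plain totals the hosts higher in replicate 2 went from 444, or 47.7%, to 263, or 25.3%.

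With a length minimum of 3000 nt there were 21475 contigs in 3700 hosts, with a median length of 4819 nt, a median level of 0.198, a spliced end in 2.1%, an opposite contig in 31.5%, assembled exons over 16.3%, and median distances of 20204 nt upstream and 24648 nt downstream. With 10000 nt the same values were 3079, 988, 14209 nt, 0.347, 4.58%, 58.8%, 21.2%, 30960 nt and 46986 nt. Leaving out contigs that touch exons of either exon table left 5124 contigs, of median length 7166 nt and level 0.224.

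The share with a spliced end was 69.8% at 1 junction read, 0.671% at 50 reads, and 1.74% and 1.75% with 10 reads in column 1 or 2 alone. Cufflinks exons covered 10% of the contig in 33.5% of contigs and 90% in 10.4%. An opposite contig overlapped 50% of the contig in 0.7%. With a minimum of 1.5-fold, 12 hosts differed between the libraries. Leaving out replicate 1 or 2 gave a median host level of 16.7 or 18.7 TPM.

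Alternatives added after the data were seen gave the following. The ratio to exon contigs was 0.227 in hosts of at least 1 RPKM. The first of the intron bins exceeded the last in 93.5% of introns with 5000 nt trimmed at each end, in 87.9% with 10 bins in place of 5 and in 98.1% of introns of 200 kb or more. With 20 reads for each junction, 44 contigs held a spliced piece, at a median inclusion of 21.0%. The cause of these shifts was not tested. Ratios of contig level to host RPKM, planned under 3 alternatives, were not run, since the scales differ. No paired analysis was possible because the 2 libraries form a single group. With 2 libraries and pooled contigs, the spread of contig levels between animals is unknown.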

Other observations

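Pde10a gave values of opposite direction for the gene and for 1 of its long intronic contigs. The gene was at 1.79 and 5.31 RPKM in columns 1 and 2 of the mm9 gene table. The single-exon model over its contig of 7559 nt in intron 4, at a level of 1.37 the strongest of the 16 contigs of the gene, was at 0.471 and 0.369 RPKM in the same columns. Single-exon models over 2 further contigs of that intron were at 0.249 and 0.235 RPKM and at 0.274 and 0.227 RPKM. No test was made of this difference.

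In 356 host genes over 50% of the aligned bases of all contigs lay in contigs that touch no exon, while the median over hosts was 17.4%. Lrrtm4 reached 94.9%, Prkg1 96.2%, Cntn5 93.6%, Khdrbs2 90.7% and Il1rapl1 89.9%.

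The last listed contigs ended at 115169878 on chromosome 13, 107327094 on 14, 102528265 on 15, 90349877 on 16, 81194191 on 17, 78077040 on 18, 59128983 on 19 and 155261009 on X, while annotated genes went on. On the other chromosomes contigs reached past the last gene. Counts of contigs and hosts on these 8 chromosomes are therefore lower bounds.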
